A study of Mus musculus with 7 samples.

Results

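The transcripts of 10 heat shock protein genes were measured in mouse liver, namely those of *Hspa1a*, *Hspa1b*, *Hspa8*, *Dnajb1*, *Dnaja1*, *Hsph1*, *Hsp90aa1*, *Hsp90ab1*, *Hspb1* and *Hspd1*. The genes were taken by symbol from a table of RNA-seq read counts, which gave 10 of 23347 genes, and all 10 were among the 15179 genes that passed a filter on low counts. The livers came from male mice on a C57BL/6 background, 6 to 8 weeks old at the start and then fed for 15 weeks on the CDAHFD, a high-fat diet that lacks choline and is low in methionine. The 4 *B4galt1* flox/flox mice, labelled WT, carry the floxed allele without the deletion and were littermate controls. The 3 mice labelled *B4galt1* hep-/- (B4galt1-HKO) carry the same allele together with Alb-Cre. The albumin promoter of Alb-Cre drives the deletion of *B4galt1*, a galactosyltransferase of the Golgi, in hepatocytes. Deletion in other cells of the liver was not examined here. Each library came from 1 liver, and livers of mice on chow were not used here. The question was how the transcripts of these chaperones differed between the groups and from liver to liver.

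Heat shock proteins are chaperones that bind unfolded or partly folded proteins and keep them from aggregating. The HSP70 proteins work in cycles of ATP hydrolysis that J-domain proteins of the HSP40 family start and nucleotide exchange factors end, and HSP90 takes over clients such as kinases and steroid receptors. Some of these genes are expressed in every cell, others are switched on when heat shock factor 1, encoded by *Hsf1*, binds heat shock elements in their promoters, and several follow the daily rhythm of body temperature and feeding in mouse liver. *Hspd1* encodes HSP60, the chaperonin of the mitochondrial matrix, so that 9 of the 10 genes encode cytosolic proteins and 1 does not.

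The heat shock element is a row of inverted GAA units, which was searched for as GAANNTTC or TTCNNGAA, letters that read the same on both strands, in the 250 bases before each transcription start in RefSeq (GRCm38.p6). The promoter table matched 7 of the 10 genes, with 12 windows. The table did not match *Hspa8*, *Hsp90aa1* and *Hsp90ab1*. At least 1 such pair of units was found for 6 of the 7 genes, in 7 of their 12 windows, and in 12.8% of the 32851 windows of all genes. *Dnajb1* was the gene without one. A run of 3 alternating units (GAANNTTCNNGAA or TTCNNGAANNTTC, each of which holds 2 overlapping pairs) was found in 1 of the 12 windows, that of *Hspd1* printed here, and in 0.466% of all windows. A window that holds a pair is printed for each of *Hspa1a*, *Hspa1b*, *Hspb1*, *Hsph1* and *Hspd1*. The letters can so be set beside the values that follow, and capitals mark the pairs.

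Hspa1a: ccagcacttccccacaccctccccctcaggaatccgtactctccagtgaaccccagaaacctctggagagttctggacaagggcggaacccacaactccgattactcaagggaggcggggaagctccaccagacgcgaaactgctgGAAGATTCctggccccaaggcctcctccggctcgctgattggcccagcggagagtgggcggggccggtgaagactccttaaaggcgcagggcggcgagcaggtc
Hspa1b: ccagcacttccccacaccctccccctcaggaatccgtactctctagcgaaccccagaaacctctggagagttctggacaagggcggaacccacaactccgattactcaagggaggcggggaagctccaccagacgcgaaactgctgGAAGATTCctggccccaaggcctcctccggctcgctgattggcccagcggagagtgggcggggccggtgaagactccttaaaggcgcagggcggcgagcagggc
Hspb1: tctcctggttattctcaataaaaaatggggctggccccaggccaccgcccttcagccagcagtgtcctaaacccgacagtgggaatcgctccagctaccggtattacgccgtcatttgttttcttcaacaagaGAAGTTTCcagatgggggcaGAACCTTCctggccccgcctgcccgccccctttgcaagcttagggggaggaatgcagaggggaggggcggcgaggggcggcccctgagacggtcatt
Hsph1: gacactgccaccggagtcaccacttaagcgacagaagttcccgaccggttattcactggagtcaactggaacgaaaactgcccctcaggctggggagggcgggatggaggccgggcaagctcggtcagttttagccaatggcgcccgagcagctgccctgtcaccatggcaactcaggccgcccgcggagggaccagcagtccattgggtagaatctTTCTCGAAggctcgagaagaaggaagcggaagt
Hspd1: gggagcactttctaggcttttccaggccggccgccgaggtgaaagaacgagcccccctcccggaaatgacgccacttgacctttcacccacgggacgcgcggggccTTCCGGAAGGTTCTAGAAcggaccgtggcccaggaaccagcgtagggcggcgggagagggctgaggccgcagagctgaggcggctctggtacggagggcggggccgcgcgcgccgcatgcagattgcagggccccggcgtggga

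The *Hspa1a* and *Hspa1b* windows (chr17:34972157-34972406 and chr17:34959239-34959488, both on the minus strand) were equal in 247 of 250 bases, and their pair began 104 bases before the start. In the *Hspb1* window (chr5:135887669-135887918, plus strand) pairs began 117 and 97 bases before the start, and in the *Hsph1* window (chr5:149636337-149636586, minus strand) a pair began 33 bases before it. The other *Hsph1* window (chr5:149636316-149636565) is not printed, and there a pair began 54 bases before the start. The *Hspd1* window (chr1:55087933-55088182, minus strand) held 3 overlapping pairs that began between 144 and 134 bases before the start. A match describes letters in these windows and was not tested as a binding site.

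The targeted gene was examined first. *B4galt1* was at 48.7, 53.0, 49.2 and 51.6 CPM (read counts scaled to library size by TMM) in flox/flox replicates 1 to 4, and at 28.4, 23.9 and 53.7 CPM in hep-/- replicates 1, 2 and 3. Replicate 3 therefore exceeded every flox/flox liver, against its label, and the group is called "labelled hep-/-" throughout. The log2 fold change of *B4galt1* was -0.52 (SE 0.26, adjusted p = 0.181 in edgeR, Benjamini-Hochberg over 15179 genes, as for every gene below) and -0.96 without that liver (adjusted p = 0.0139). Without replicate 2 labelled hep-/- it was -0.30 (adjusted p = 0.461). Total counts ranged from 30608271 to 39668509 per library. Mitochondrially encoded genes took 5.79% ± 1.70 of the counts (SD, n = 4) in the flox/flox group and 19.7% ± 4.58 (SD, n = 3) in the group labelled hep-/-. The hepatocyte marker *Alb* was at 57197 CPM or more in all 7 livers.

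None of the 10 heat shock protein genes was called as different between the groups (a log2 fold change beyond 0.58 in either direction at an adjusted p under 0.05), where 15.8% of all tested genes were called, 8.0% as higher and 7.83% as lower in livers labelled hep-/-. At an unadjusted p under 0.05 there was 1 of 10 in edgeR, *Hspa1a*, where 32.9% of all tested genes were below it, and 4 of 10 in DESeq2, where 23.9% of the 22934 genes with a p were. DESeq2 also called none of the 10, and 21.3% of the genes with an adjusted p there. limma on log2(FPKM + 1) and voom with sample quality weights each called 2 of 10, different ones, beside 21.0% and 19.7% of all genes tested in those fits. *Hsp90ab1* and *Hspd1* were lower in limma, and *Hspa1a* and *Hspa1b* were higher in voom. The values of the 2 groups overlapped for all 10 genes, and for 28.6% of all tested genes they did not. The median log2 fold change of the 10 genes was 0.34, beside 0.021 over all tested genes. Because the groups held 4 and 3 livers, the 95% intervals given below remain wide, and an adjusted p above the threshold does not show equal levels. In whole liver, fewer cells of a type and less RNA per cell cannot be told apart.

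**Figure D1:**
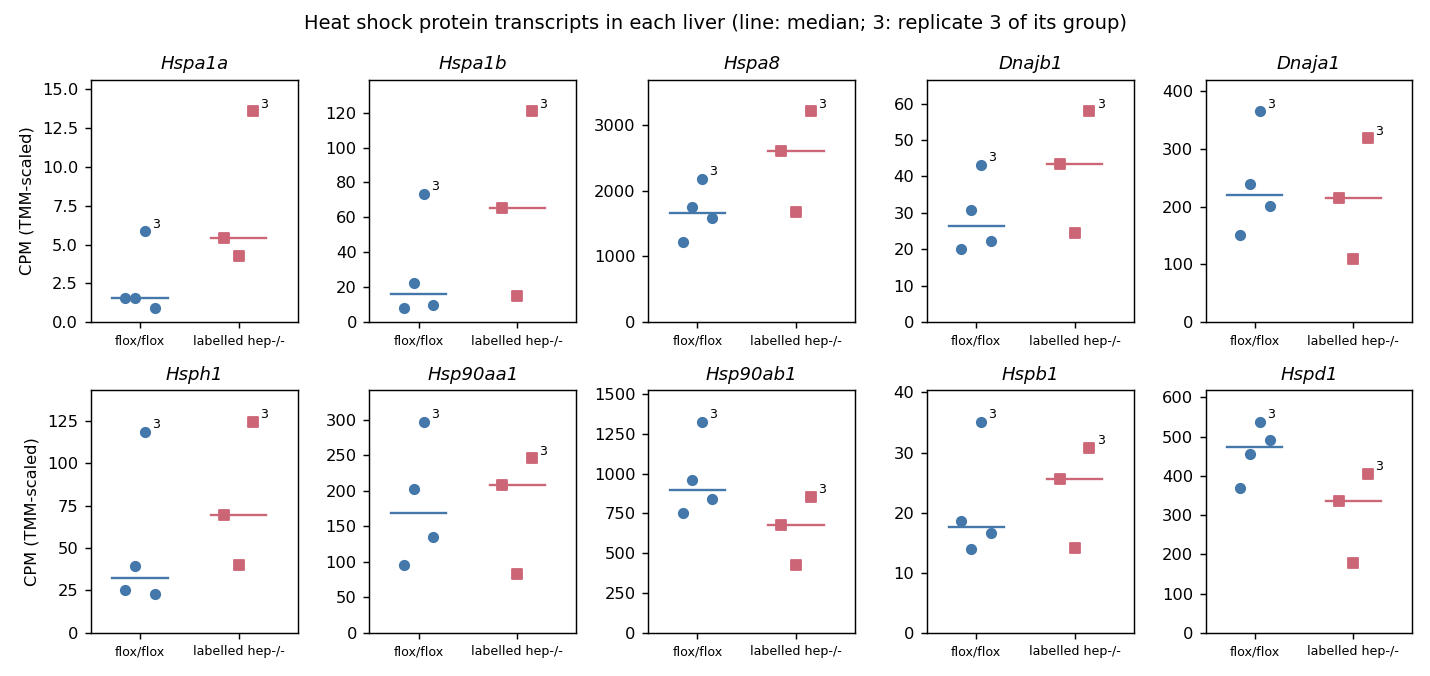
CPM (TMM-scaled, linear axes from 0) of the 10 heat shock protein genes in the 4 flox/flox livers (circles) and the 3 livers labelled hep-/- (squares). Lines are group medians, and 3 marks replicate 3, the highest liver of its group in all 10 panels.

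The stress-inducible HSP70 genes had the highest fold changes and the widest spread. *Hspa1a*, one of the neighbouring genes for inducible HSP70 (NCBI gene 193740), was at 1.54, 1.53, 5.86 and 0.904 CPM in flox/flox replicates 1 to 4 and at 5.42, 4.25 and 13.6 CPM in replicates 1 to 3 labelled hep-/-. Flox/flox replicates 1, 2 and 4 were below every liver labelled hep-/-, while flox/flox replicate 3 was above 2 of those livers. The fold change was 3.14 (log2 1.65, SE 0.59, 95% interval 0.35 to 2.95, adjusted p = 0.0783).

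Its neighbour *Hspa1b* (NCBI gene 15511), which encodes nearly the same protein, was at 7.84, 22.3, 73.4 and 9.72 CPM in flox/flox livers and at 65.4, 14.7 and 121 CPM in livers labelled hep-/-. The highest flox/flox liver was 9.36-fold above the lowest, and the highest liver labelled hep-/- was 8.22-fold above the lowest of that group, so that the spread within groups exceeded the 2.36-fold difference between them (log2 1.24, SE 0.74, 95% interval -0.38 to 2.86, adjusted p = 0.267). Without flox/flox replicate 3 both genes were called, at log2 2.54 for *Hspa1a* (adjusted p = 0.0145) and 2.33 for *Hspa1b* (adjusted p = 0.0456), in a fit that called 9.36% of its 15015 genes. Without replicate 3 labelled hep-/- they stood at 0.96 (adjusted p = 0.311) and 0.49 (adjusted p = 0.710). The 2 transcripts share much of their sequence: 47.1% of the 100-base windows of *Hspa1a* also occur in *Hspa1b* in GENCODE M21, so the split of reads between them is uncertain.

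*Hspa8*, the constitutive HSP70 known as HSC70 (NCBI gene 15481), was the most abundant of the 10. It was at 1216, 1752, 2187 and 1589 CPM in flox/flox livers and at 2609, 1683 and 3212 CPM in livers labelled hep-/-. Replicates 1 and 3 labelled hep-/- were above every flox/flox liver and replicate 2 lay within the flox/flox range, with a log2 fold change of 0.57 (SE 0.28, 95% interval -0.043 to 1.18, adjusted p = 0.181). Without replicate 3 labelled hep-/- it was 0.34 (adjusted p = 0.433). Of its 100-base windows 63.4% also occur in other annotated transcripts, most of them in *Gm26825*, so its level too is uncertain.

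*Dnajb1* and *Dnaja1* encode J-domain proteins of the cytosol, which start the ATP cycle of HSP70, and neither gene passed the test. *Dnajb1*, the inducible HSP40 (NCBI gene 81489), was at 20.0, 30.7, 43.2 and 22.3 CPM in flox/flox livers and at 43.5, 24.5 and 57.9 CPM in livers labelled hep-/- (log2 0.53, SE 0.31, 95% interval -0.16 to 1.22, adjusted p = 0.262). Its log2 fold change was 0.22 without replicate 3 labelled hep-/- (adjusted p = 0.684) and 0.80 without replicate 2 labelled hep-/- (adjusted p = 0.0999). *Dnaja1*, which is expressed without stress (NCBI gene 15502), was at 152, 240, 365 and 201 CPM and at 215, 110 and 318 CPM (log2 -0.16, SE 0.36, 95% interval -0.94 to 0.63, adjusted p = 0.789). The log2 fold change of *Dnaja1* had either sign as livers were left out, between -0.56 without replicate 3 labelled hep-/- and 0.16 without replicate 2.

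*Hsph1*, the HSP110 that exchanges nucleotides on HSP70 (NCBI gene 15505), was at 25.3, 39.5, 119 and 23.0 CPM in flox/flox livers and at 69.4, 40.1 and 124 CPM in livers labelled hep-/-. As for *Hspa1a*, the groups overlapped through flox/flox replicate 3 alone. The log2 fold change was 0.59 (SE 0.53, 95% interval -0.57 to 1.76, adjusted p = 0.467), and without that liver it was 1.41 and was called (adjusted p = 0.0429). Without replicate 3 labelled hep-/- it was 0.077 (adjusted p = 0.942). *Hsph1* shared no 100-base window with another gene, and neither did *Dnajb1* and *Hsp90ab1*. Shared windows made up 47.5% of *Hsp90aa1* (39.6% with Gm12346), 26.9% of *Hspd1* and 24.0% of *Dnaja1*, so the levels of these genes and the ratios that hold them are uncertain too.

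Cytosolic HSP90 has an inducible and a constitutive form. *Hsp90aa1*, the inducible form (NCBI gene 15519), was at 95.4, 203, 297 and 135 CPM in flox/flox livers and at 209, 83.6 and 246 CPM in livers labelled hep-/-, with a log2 fold change of -0.024 (SE 0.41, 95% interval -0.91 to 0.86, adjusted p = 0.975) whose sign turned with the setting. *Hsp90ab1*, the constitutive form (NCBI gene 15516), was at 753, 959, 1325 and 840 CPM and at 680, 426 and 855 CPM. Replicates 1 and 2 labelled hep-/- were below every flox/flox liver, and replicate 3 was above 2 of them (log2 -0.57, SE 0.28, 95% interval -1.19 to 0.054, adjusted p = 0.188). Without replicate 2 labelled hep-/- it was -0.34 (adjusted p = 0.442), and without replicate 3 of that group -0.82 (adjusted p = 0.0928). In limma on log2(FPKM + 1) *Hsp90ab1* was lower by the call rule, at -0.72 (adjusted p = 0.0468), but FPKM there was scaled to all counts, mitochondrial ones included, and the median of all genes was at -0.14.

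*Hspb1*, the small heat shock protein HSP25 (NCBI gene 15507), was at 18.6, 13.9, 35.1 and 16.6 CPM in flox/flox livers and at 25.6, 14.2 and 30.8 CPM in livers labelled hep-/-. The ranges nearly coincided (log2 0.16, SE 0.33, 95% interval -0.57 to 0.89, adjusted p = 0.771), and 42.7% of its 100-base windows also occur in *Hsp25-ps1*. The mitochondrial chaperonin *Hspd1* (NCBI gene 15510) was at 369, 455, 537 and 491 CPM and at 336, 178 and 406 CPM. Replicates 1 and 2 labelled hep-/- were below every flox/flox liver and replicate 3 was above 1 of them (log2 -0.59, SE 0.28, 95% interval -1.20 to 0.012, adjusted p = 0.160), and limma on log2(FPKM + 1) gave -0.78 (adjusted p = 0.0245). Without replicate 2 labelled hep-/- edgeR gave -0.32 for *Hspd1* (adjusted p = 0.386), and without replicate 3 of that group -0.86 (adjusted p = 0.0762). Its partner *Hspe1*, the co-chaperonin HSP10, was at 131, 153, 197 and 202 CPM and at 163, 98.4 and 234 CPM (log2 -0.048, SE 0.28, adjusted p = 0.924).

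**Figure D2:**
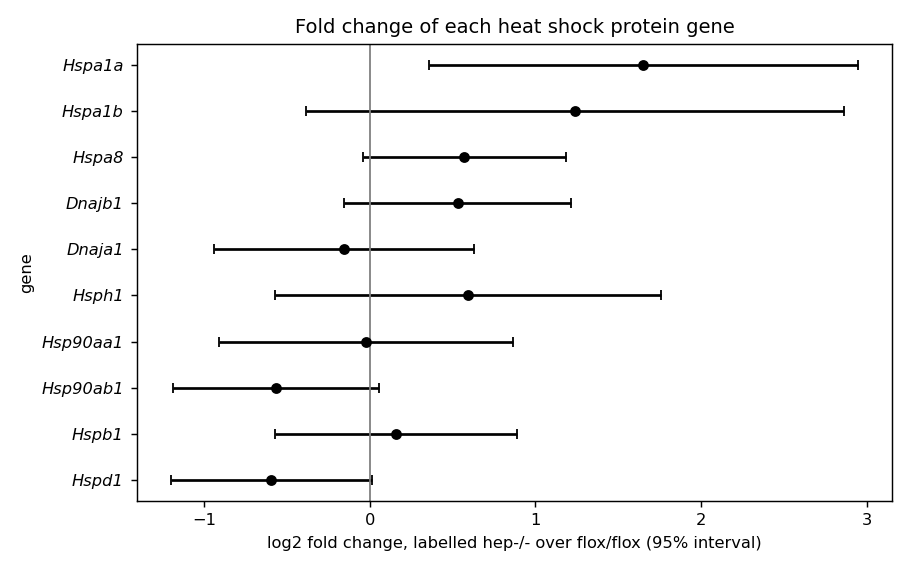
Log2 fold change (livers labelled hep-/- over flox/flox livers) of the 10 genes from edgeR, with 95% intervals. The interval of *Hspa1a*, 0.35 to 2.95, is the one that leaves out 0, and no gene passed the threshold after adjustment.

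Levels between genes were compared per length, in FPKM. In flox/flox livers *Hspa8* was at 831 ± 208 FPKM (SD, n = 4), followed by *Hsp90ab1* at 403 ± 115 and *Hspd1* at 185 ± 26.7. *Dnaja1* at 69.1 ± 28.0 and *Hsp90aa1* at 66.6 ± 33.8 did not differ beyond their spread, nor did *Hspa1b* at 10.6 ± 11.9, *Dnajb1* at 9.39 ± 3.63 and *Hsph1* at 8.50 ± 7.73, with *Hspb1* between these sets at 24.5 ± 12.1. *Hspa1a* was the scarcest, at 0.935 ± 0.894 FPKM. Of the summed FPKM of the 10 genes, *Hspa8* made up between 50.0% and 53.3% in the flox/flox livers and between 65.8% and 70.5% in those labelled hep-/-, which is a description chosen after the values were seen.

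Within each group the 10 genes shared the highest liver, and in livers labelled hep-/- they also shared the lowest. Other livers lay above the group mean for some genes and below it for others. In flox/flox replicate 2 the distance from that mean was -0.51 for *Hspb1* and 0.28 for *Hsp90aa1* on the log2 scale. Flox/flox replicate 3 had the highest level of its group for 10 of 10 genes, and for 29.7% of all tested genes. Among livers labelled hep-/- replicate 3 was the highest for 10 of 10 genes, against 33.1% of all tested genes, and replicate 2 was the lowest for 10 of 10, against 39.2%. Both of these ranks were shared by all 9 tested hepatocyte markers. All 3 of these ranks held at once for 10 of 10 genes, for 17 of 86 other genes of the chaperone network and for 8.14% of all tested genes. Among 16 chaperone genes of the endoplasmic reticulum, counted apart, they held at once for 5, and flox/flox replicate 3 was the highest of its group for 14. Over all 7 livers, flox/flox replicate 3 was the highest for 5 genes and replicate 3 labelled hep-/- was the highest for the other 5. These ranks rest on 7 livers in which the genes share their libraries, and they carry no test.

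The distance of a liver from its own group's mean differed among the genes. In flox/flox replicate 3 it ran from 0.23 on the log2 scale for *Hspd1* to 1.97 for *Hspa1b*, with a mean of 0.93 over the 10 genes. In replicate 3 labelled hep-/- it ran from 0.41 for *Hspa8* to 1.31 for *Hspa1b*, with a mean of 0.68, and in replicate 2 the mean was -0.81. *Hspa1b*, *Hspa1a* and *Hsph1* had the widest spread within groups, an SD of 1.50, 1.02 and 0.98 on the log2 scale, above those of 99.8%, 96.9% and 96.4% of all tested genes. *Hspa8* and *Hsp90ab1* had the narrowest, 0.41 and 0.42, above 60.5% and 63.2% of all tested genes. Inducible *Hsp90aa1* was at 0.76 (above 90.4%). The order did not follow inducibility throughout, since inducible *Dnajb1*, at 0.55 (above 78.0%), varied less than *Dnaja1*, at 0.64 (above 84.1%).

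**Figure D3:**
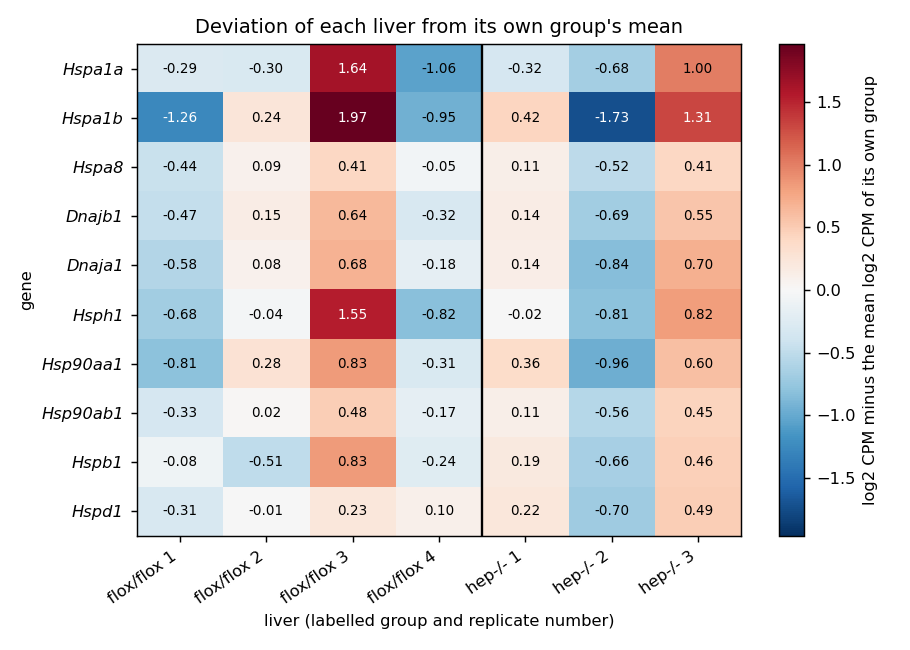
Log2 CPM of each gene (rows) in each liver (columns) minus the mean log2 CPM of that liver's own group. Replicate 3 of each group is positive and replicate 2 labelled hep-/- is negative in all 10 rows, with the largest values for *Hspa1b*, 1.97 and -1.73.

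The tested genes outside the 10 whose profile over the 7 livers lay nearest to the mean profile of the 10 were *Stip1*, *Hspa4l*, *Snx13*, *Fkbp4* and *Ccdc117*, out of 7581 genes at or above the median expression. Likeness was the root mean square difference of standardized log2 CPM over 7 livers, 0.13 for *Stip1* and 0.20 for *Hspa4l*, and it was 0.23 to 0.25 for the other 3. The 10 genes themselves lay between 0.30 for *Hsp90aa1* and 0.89 for *Hspd1* from their own mean. *Stip1* encodes the adaptor that joins HSP70 to HSP90, *Hspa4l* an HSP110 protein and *Fkbp4* an HSP90 immunophilin. *Stip1* was at 53.0, 67.9, 98.7 and 56.8 CPM in flox/flox livers and at 74.8, 50.5 and 89.1 CPM in livers labelled hep-/-. Its log2 fold change was 0.048 (SE 0.26, 95% interval -0.52 to 0.62, adjusted p = 0.917), and the 5 genes ranged from -0.022 to 0.23.

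Ratios of 2 transcripts within a library cancel the scaling of that library, and 5 ratios were compared by a two-sided exact permutation test over the 35 ways to split 7 livers, whose smallest p is 0.0286. Inducible *Dnajb1* per *Dnaja1* was 0.132, 0.128, 0.118 and 0.111 in flox/flox livers and 0.202, 0.223 and 0.182 in livers labelled hep-/-. The groups did not overlap, and the mean log2 ratio was higher by 0.72 (exact permutation p = 0.0286, 0.0714 after adjustment over the 5 ratios). *Hspd1* per *Hspe1*, the 2 parts of the mitochondrial chaperonin, was 2.81, 2.97, 2.73 and 2.43 in flox/flox livers and 2.06, 1.81 and 1.73 in the others. Here too the groups did not overlap, with a difference of -0.55 (exact permutation p = 0.0286, adjusted 0.0714). Both p-values are the smallest that 7 livers allow. With 2 of the 5 ratios at that value, adjustment gave 0.0714, so neither passed the threshold of 0.05.

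The other 3 ratios overlapped between the groups. *Hsp90aa1* per *Hsp90ab1* was 0.127, 0.211, 0.224 and 0.160 in flox/flox livers and 0.307, 0.196 and 0.288 in livers labelled hep-/- (difference 0.56 on the log2 scale, exact permutation p = 0.171, adjusted 0.286). The sum of *Hspa1a* and *Hspa1b* per *Hspa8*, which does not depend on how reads were split between the inducible pair, was 0.00772, 0.0136, 0.0363 and 0.00669 and then 0.0271, 0.0113 and 0.0418 (difference 0.89, exact permutation p = 0.314, adjusted 0.393). That difference was 0.47 without replicate 3 labelled hep-/-, 0.58 without flox/flox replicate 4, 1.40 without flox/flox replicate 3 and 1.42 without replicate 2 labelled hep-/-. *Hsph1* per *Hspa8* was 0.0208, 0.0225, 0.0543 and 0.0145 and then 0.0266, 0.0238 and 0.0387 (difference 0.24, exact permutation p = 0.686), and the difference ranged from -0.018 without flox/flox replicate 4 to 0.62 without flox/flox replicate 3. In these 3 ratios replicate 3 of the flox/flox livers was again the highest of its group.

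Among all 45 pairs of the 10 genes the groups did not overlap in the ratio for 15, or 33.3%, where 27.3% of all 115193431 pairs of tested genes did not overlap. The share is close to that background, and the pairs share genes. The widest gap was seen for *Hspa8* per *Hsp90ab1*, singled out after its values were seen and so given without a test. It was 1.61, 1.83, 1.65 and 1.89 in flox/flox livers and 3.84, 3.95 and 3.76 in livers labelled hep-/-. Within either group this ratio varied little although *Hspa8* itself varied 1.80-fold and 1.91-fold, and the mean ratio was 2.21-fold higher in the latter group.

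**Figure D4:**
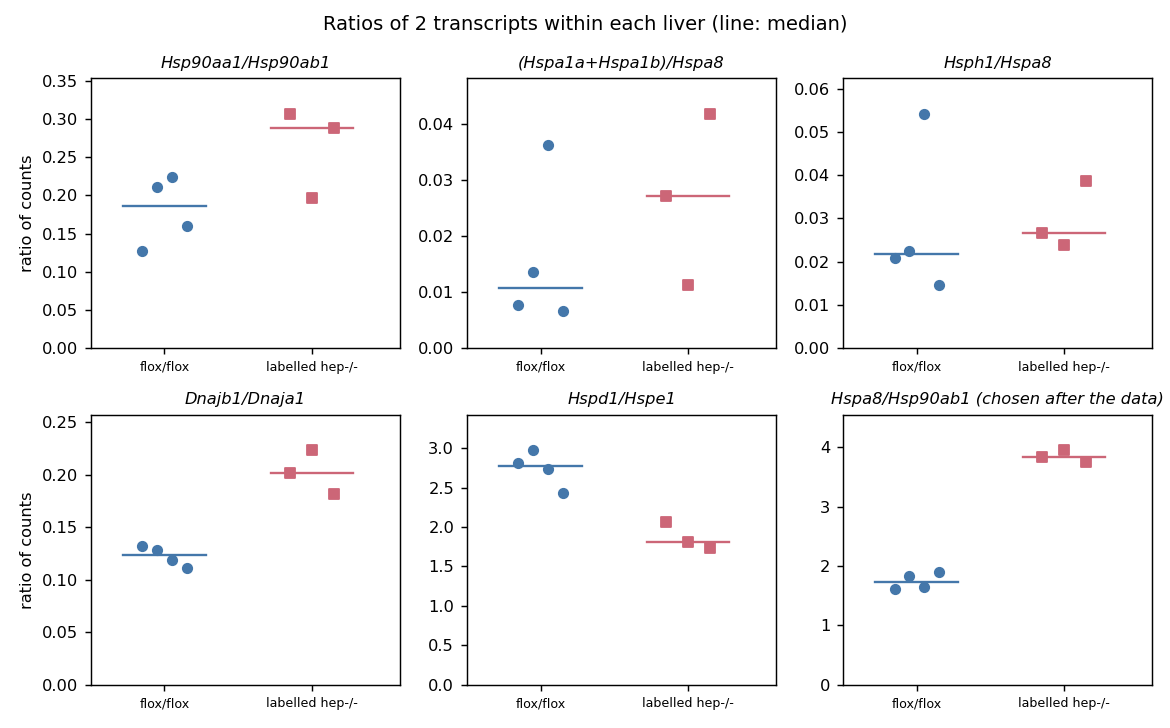
Ratios of raw counts of 2 transcripts in each of the 7 livers (circles flox/flox, squares labelled hep-/-, lines medians, axes from 0). The groups separate for *Dnajb1* per *Dnaja1*, *Hspd1* per *Hspe1* and *Hspa8* per *Hsp90ab1*, of which the last was chosen after the data were seen.

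The rest of the chaperone network was read from 8 lists with 91 genes, of which 86 were tested. There 7 genes were higher and 7 were lower in livers labelled hep-/-, or 16.3% against 15.8% of all tested genes, with a median log2 fold change of 0.037. Chaperones of the endoplasmic reticulum were counted apart, and with their 16 genes the network held 7 higher and 11 lower genes of 102 tested, or 17.6%. Of the 5 tested heat shock factors and binding proteins 1 was called. *Hsf1*, which encodes the factor that activates the inducible genes (NCBI gene 15499), rose from 16.1, 11.7, 9.98 and 10.002 CPM in flox/flox livers to 18.1, 28.8 and 29.998 CPM (log2 1.10, SE 0.24, adjusted p = 0.0138). The groups did not overlap. The call was lost without flox/flox replicate 2 (1.08, adjusted p = 0.0507) and without both replicate 3 livers (0.89, adjusted p = 0.0805). It was also lost in limma without a filter (0.84, adjusted p = 0.117). Within groups *Hsf1* shared 1 of the 3 ranks of the heat shock proteins, since replicate 3 was the highest of the livers labelled hep-/-. Replicate 2 was not the lowest there, and flox/flox replicate 3 lay with replicate 4 at the low end of its group.

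The lists of partners were read beside the 8.0% of all tested genes called as higher and the 7.83% called as lower. None of the 6 other HSP70 and HSP110 genes was called, 1 of 15 other J-domain genes was higher (*Dnajc7*, log2 0.72, a call lost in 5 of 7 fits that left out 1 liver), and so was 1 of 10 exchange factors and adaptors (*Stub1*, the ubiquitin ligase CHIP, log2 0.86, SE 0.18, adjusted p = 0.0112). Of 16 HSP90 co-chaperones 2 were higher, *Ahsa2*, an activator of the HSP90 ATPase (0.92), and the cyclophilin *Ppid* (0.79). One of them was lower, *Cdc37*, which brings kinases to HSP90 (log2 -1.15, SE 0.20, adjusted p = 0.00581). *Cdc37* was at 76.1, 76.4, 86.3 and 66.2 CPM in flox/flox livers and fell to 34.6, 27.7 and 40.6 CPM. None of the 5 other small heat shock proteins was called. Of 14 genes of the chaperonin TRiC and its helper prefoldin, *Cct5* was lower (-0.80) and *Pfdn6* was higher (0.78). Each of these calls was lost in 5 of 7 fits that left out 1 liver, with 0 to 2 lower and 0 or 1 higher genes in the list.

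Chaperones and proteases of mitochondria, the neighbours of *Hspd1*, had 5 lower genes and 1 higher gene among 15, where 7.83% of all tested genes were lower and 8.0% higher. *Hspa9*, the mitochondrial HSP70 that pulls proteins through the inner membrane, fell from 463, 617, 554 and 587 CPM to 209, 145 and 335 CPM (log2 -1.27, SE 0.28, adjusted p = 0.0140). Its exchange factor *Grpel1* (-1.13), the HSP90 of mitochondria *Trap1* (-0.65) and the proteases *Lonp1* (-0.72) and *Yme1l1* (-0.66) were lower, while *Clpx*, the unfoldase of the ClpXP protease, was higher (1.01). In the endoplasmic reticulum 4 of 16 chaperone genes were lower (7.83% of all tested genes), namely the lectin *Canx* (-1.23), the J-domain gene *Dnajb9* (-1.17), *Sil1* (-0.76) and *Pdia6* (-0.72), and none was higher. Leaving out 1 liver gave 2 to 5 lower mitochondrial genes, with 2 without flox/flox replicate 2 or replicate 2 labelled hep-/-, and 3 without flox/flox replicate 3 or 4 or replicate 1 labelled hep-/-. It gave 1 to 4 lower genes of the endoplasmic reticulum, with 1 without flox/flox replicate 2 or 4 or replicate 2 labelled hep-/-, and 2 without flox/flox replicate 3 or replicate 1 labelled hep-/-. *Trap1*, *Dnajb9* and *Pdia6* lost their calls in 5 of these 7 fits, *Yme1l1* in 6, *Sil1* in 4 and *Lonp1* in 2. *Stub1*, *Ahsa2*, *Ppid*, *Cdc37*, *Hspa9*, *Grpel1*, *Clpx* and *Canx* were called in each of 7 fits that left out 1 liver. The network's count of lower genes was 3 or 4 in 5 of those fits, namely 3 without flox/flox replicate 2 or replicate 2 labelled hep-/-, and 4 without flox/flox replicate 3 or 4 or replicate 1 labelled hep-/-, and its count of higher genes was 4 without flox/flox replicate 2.

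**Figure D5:**
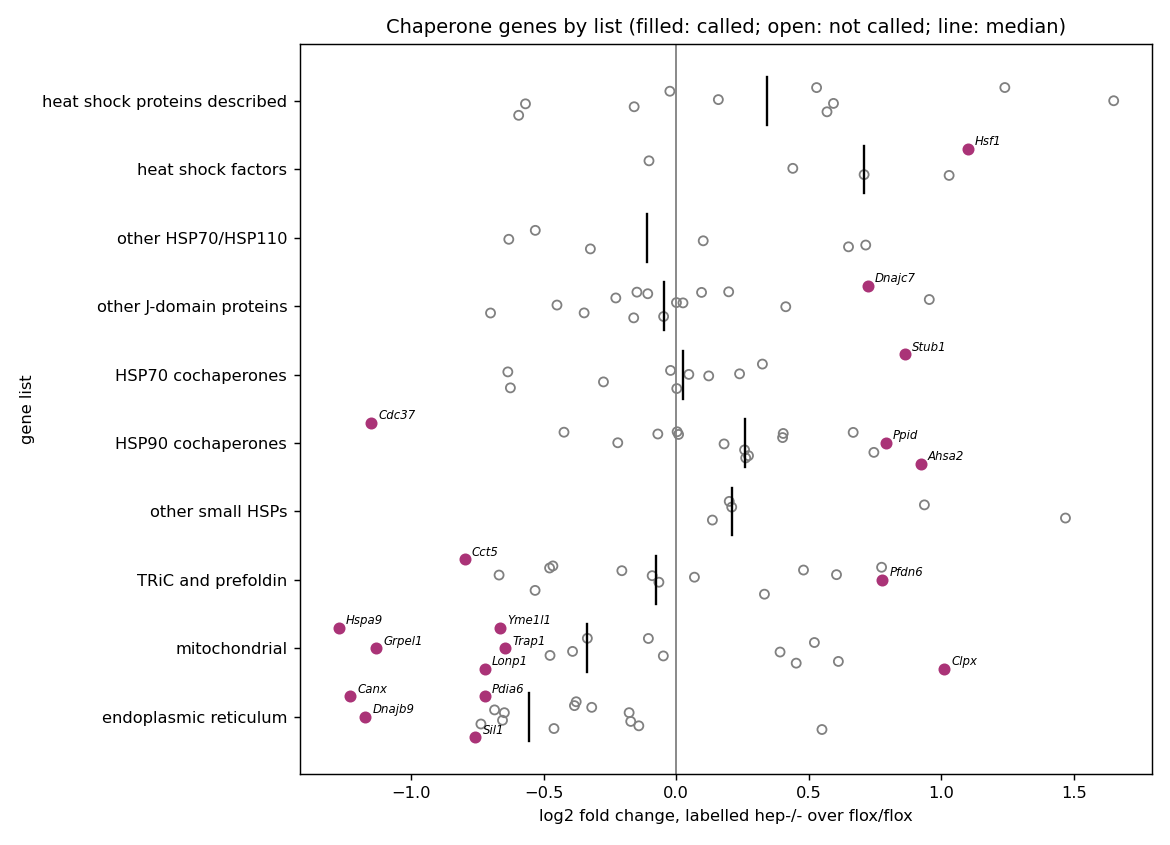
Log2 fold change (livers labelled hep-/- over flox/flox livers) of the 10 heat shock protein genes and of 9 lists of other chaperone genes. Filled points passed the call rule, open points did not, and vertical lines are list medians; the 10 genes hold no filled point.

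Other transcripts differed between the same livers. Of 18 tested genes of the circadian clock, flox/flox replicate 3 was the highest of its group for 5, or 27.8%, against 29.7% of all tested genes. Replicate 3 labelled hep-/- was the highest of its group for 9, or 50.0%, against 33.1%. In *Cry1* both replicate 3 livers were the highest of their groups, and in *Dbp* both were the lowest. *Dbp* was at 163, 130, 67.8 and 179 CPM in flox/flox livers and at 43.9, 56.7 and 16.0 CPM in livers labelled hep-/- (log2 -1.79, adjusted p = 0.0181). *Cry1* (1.71) and *Bmal1* (2.38) were higher, and of the 18 genes 5 were higher and 2 were lower, beside 8.0% and 7.83% of all tested genes. Without replicate 3 labelled hep-/- *Cry1* was at 1.03 and not called (adjusted p = 0.0808), and *Bmal1* was at 1.45 (adjusted p = 0.0419). The call of *Cry1* was lost in 3 of 7 fits that left out 1 liver. The labels give no time of collection. Of 19 immediate early genes *Ier3* (2.0), *Klf2* (0.86) and *Dusp1* (1.02) were higher, and of 5 nuclear RNAs *Kcnq1ot1* was higher (1.66), again beside 8.0% of all tested genes. None of the 19 was higher without flox/flox replicate 2 or without replicate 3 labelled hep-/-, and 1 nuclear RNA was higher without flox/flox replicate 1 or without replicate 3 labelled hep-/-, but none in the other 5 of 7 fits. Of the clock genes 3 to 5 were higher and 1 or 2 lower when 1 liver was left out, with 3 higher without flox/flox replicate 2 or 4, and 1 lower without flox/flox replicate 2 or 4 or replicate 1 or 3 labelled hep-/-. The part of these differences in the heat shock protein values was not tested.

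Cell type markers were read in the same way, beside the 8.0% of all tested genes called as higher and the 7.83% called as lower, and no marker was at 0 in all 7 livers. Hepatocyte markers, 9 tested, summed to between 90779 and 131772 CPM in flox/flox livers and between 101385 and 162190 CPM in those labelled hep-/-, with none called. Within the group labelled hep-/- they were highest in replicate 3 and lowest in replicate 2 for 9 of 9 genes, the ranks that the 10 heat shock protein genes had there, but they were highest in flox/flox replicate 3 for 2 of 9. Macrophage markers summed to between 1664 and 3646 CPM and between 792 and 916 CPM, and 6 of 10 were lower (*Lyz2*, *Adgre1*, *Gpnmb*, *Vsig4*, *Cd68* and *Trem2*), or 4 to 7 when 1 liver was left out, with 4 without flox/flox replicate 2 or 3 or replicate 3 labelled hep-/-. Flox/flox replicate 3 was the highest of its group for 10 of 10 macrophage and 10 of 10 endothelial markers, whose sum of 418 CPM there compared with 141 to 182 CPM in the other flox/flox livers and 195 to 243 CPM in livers labelled hep-/-. *Kdr* was lower (-1.33) and *Egfl7* higher (0.84) among endothelial markers.

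Stellate cell markers summed to between 949 and 1455 CPM in flox/flox livers and between 820 and 1349 CPM in those labelled hep-/-, with *Lum* lower (-1.08). Cholangiocyte markers (255 to 660 CPM and 260 to 879 CPM), lymphocyte markers (16.3 to 39.0 CPM and 24.7 to 58.0 CPM) and neutrophil markers (26.0 to 38.3 CPM and 27.3 to 49.6 CPM) had no called gene. Erythroid markers summed to between 102 and 182 CPM and between 70.1 and 245 CPM, with *Hba-a1* higher (1.11) and *Alas2* lower (-1.24), and replicate 2 labelled hep-/- was the lowest of its group for 5 of 5. The single calls among stellate and endothelial markers and that of *Hba-a1* were not all kept when 1 liver was left out, with 0 or 1 lower stellate gene, 0 or 1 lower and 0 to 2 higher endothelial genes and 0 to 2 higher erythroid genes. The part of these cells in the heat shock protein values was not tested. Leaving out the 13 mitochondrially encoded genes left the log2 fold change of *Hspa1a* at 1.65, that of *Hspa8* at 0.57 and that of *Hspd1* at -0.60, and none of the 10 genes was called.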

How the data were processed

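RNA of 7 livers was sequenced after TRIzol extraction and a VAHTS Universal V6 library kit. The authors deposited raw read counts per gene, not normalized, and FPKM values for the same genes and livers. Per the submitters' processing notes fastp, HISAT2, HTSeq, DESeq2, R 3.2.0 and the build GRCm39 were used. The annotation and strand setting are not given in the sources used here. For 13374 genes with at least 10 counts in every liver, FPKM equalled counts over a fixed length and the library total, with 0 genes off by over 1%. No sample column was left unused (0 columns).

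Groups and replicate numbers came from the sample labels, which give separate mice. The p-values set the difference between the groups against the spread among these livers. Counts were filtered by filterByExpr (minimum count 10, minimum total 15), scaled by TMM and compared by the quasi-likelihood F-test of edgeR 4.0.16 under R 4.3.3, with group as the sole term. Intervals are 95% intervals from the fit's standard error, which was computed from the F statistic. CPM values are TMM-scaled, and 3 counts correspond to 0.0756 to 0.0980 CPM. The edgeR step was tested on simulated counts, and the permutation test on values with a known answer.

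Nothing in the labels says that equal replicate numbers pair the mice. Deviations from group means correlated at -0.34, -0.034 and 0.078 for numbers 1, 2 and 3. For flox/flox replicate 1 with replicate 2 labelled hep-/- the value was 0.49, and such correlations cannot show whether mice were paired. No 2 libraries agreed within sampling noise. The genes described and the lists were chosen with earlier results of these data known. Named genes were the 10 genes, *Hsf1*, *B4galt1*, *Hspe1*, called genes of each list (the 4 largest without overlap where over 6 were called) and the 5 nearest profiles. Of these, 1 gene is not reported here. Alternatives were RLE and upper-quartile scaling, DESeq2 1.42.0, other count filters, limma 3.58.1 with a pseudocount of 1 or 0.1 added to FPKM (genes reaching FPKM 1 in 3 livers, or all), voom with quality weights per sample, a replicate block, no fold threshold, leaving out each liver and, chosen after the data were seen, both replicate 3 livers. Promoter windows came from RefSeq (GRCm38.p6), and shared windows of 100 bases from GENCODE M21 transcripts.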

Additional observations from a re-analysis of the deposited data

Results flagged for a closer look

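Of 47 sets of 4 flox/flox values examined, 2 had a liver far from the others, and chance flags about 1 in 20 such sets. *Hspa1a* stood at 5.86 CPM in flox/flox replicate 3, where the gap to the next liver was 0.87 of the group's range, beyond the limit for 4 values. *Ccdc117*, 1 of the 5 genes with the nearest profile, stood at 33.2 CPM in the same liver, with a gap of 0.93 of the range. This is the liver with the highest level of all 10 heat shock protein genes among flox/flox livers, and *Ccdc117* was chosen for likeness to them.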

How the results depend on the processing

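None of the 10 heat shock protein genes was called with DESeq2, with RLE or upper-quartile scaling, with at least 10 counts in every liver, in limma without a filter, without mitochondrially encoded genes or without a fold threshold. The filter of at least 1 count in any liver, the replicate block and the fit without both replicate 3 livers each called 1 gene, *Hspa1a* (log2 1.64, 1.49 and 1.86). In limma on log2(FPKM + 0.1), limma on log2(FPKM + 1) and voom 2 were called. Leaving out 1 liver gave 0 to 3 called genes, and 3 were called without flox/flox replicate 3 alone. Over all tested genes 2404 were called, 1330 in limma without a filter, 1267 with the replicate block, 1454 without both replicate 3 livers and 885 to 2396 when 1 liver was left out. Of the calls 50.5% were higher, and 24.5% in limma on log2(FPKM + 1), 23.6% with a pseudocount of 0.1 and 18.2% without a filter. The median of all genes was -0.14 and -0.18 in the first 2. Of the chaperone network 7 genes were higher and 7 lower. The higher count was 3 in limma without a filter, 3 with the replicate block and 11 in voom, and 4 to 7 when 1 liver was left out. The lower count was 15 in limma on log2(FPKM + 0.1), 14 with a pseudocount of 1 and 3 with the replicate block, and 3 to 9 when 1 liver was left out. The sign turned for *Hsp90aa1* with upper-quartile scaling (0.010), in voom (0.12), without both replicate 3 livers (0.015) and when 1 liver was left out (-0.33 to 0.32). When 1 liver was left out, it also turned for *Dnaja1* (-0.56 to 0.16), *Hspb1* (-0.091 to 0.52) and *Hspe1* (-0.39 to 0.22), the last also in voom (0.049). For *Hsph1* per *Hspa8* it turned with the replicate block (-0.018) and when 1 liver was left out (-0.018 to 0.62). The cause was not tested. A fit with 2 livers in a group has fewer samples. The replicate block was fitted although nothing in the labels says that the numbers pair the mice, and *Hsf1* was not called there (1.02, adjusted p = 0.0554). The counts behind *Hspa1a* were low, and *B4galt1* in replicate 3 labelled hep-/- went against its label.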
